A study of Rattus norvegicus with 2 samples.

Results

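The genes examined here are 9 of retinoid synthesis, breakdown and response, out of 22093 genes with a probe set carrying a single gene symbol on the array. They were Adh7 and Rdh10, which oxidise retinol to retinal, Aldh1a1, Aldh1a2 and Aldh1a3, which oxidise retinal to retinoic acid, Crabp2, which carries retinoic acid to its receptors, Cyp26b1, which breaks it down, and the receptors Rarb and Rarg. They were chosen by symbol with their values on these arrays already known, so their differences are given as a description. A gene with more than 1 probe set was represented by its brightest, judged on the mean log2 signal over both arrays.

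The Control array held RNA pooled from the bladders of 5 male F344 rats, an inbred strain, given 0 ppm dimethylarsinic acid (DMA) in their drinking water. The DMA-tumor array held RNA pooled from 6 bladder carcinomas of male F344 rats given 200 ppm DMA, a methylated metabolite of arsenic. Treatment began at 10 weeks of age, its length is given as 2 years, and age is given as 114 weeks for both arrays. By the methods of the study, rats that became moribund were also killed and their bladders taken. Some pooled samples may thus come from a shorter treatment. There was 1 array per group. No value therefore carries an error between replicates or a p-value, and differences between animals within a pool are not seen. The number of tumors is that of the series design, and the methods of the study give fewer. The tumors were identified by their size, without histology. The Control pool is labelled as epithelium, while the methods of the study speak of bladder tissue.

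Vitamin A reaches cells as retinol, which is stored as esters or oxidised in a reversible step to retinal and then irreversibly to retinoic acid. Retinoic acid binds RAR receptors, which pair with RXR receptors on DNA and switch target genes on, among them Rarb itself and the CYP26 enzymes that remove retinoic acid. Lack of vitamin A is known to turn the urothelium into a keratinizing squamous epithelium. In mouse bladder, cells of the stroma express Aldh1a2 and supply retinoic acid to the urothelium.

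The markers of both arrays bear on every comparison. All 6 urothelial markers were strong in the Control array, with signals from 5761 to 523348, and 5 of them stayed above 100 in the DMA-tumor array, where the exception was Krt20 at 77.9. The Control array also carried 7 of 7 fibroblast markers at 2908 to 57824 and 6 of 6 smooth muscle markers at 2228 to 36479. In the DMA-tumor array the fibroblast markers lay between 41.7 and 381, with 3 of the 7 under 100, and the smooth muscle markers between 54.6 and 3292, with 2 of the 6 under 100. In such bulk RNA, fewer cells of a type and less RNA per cell cannot be told apart.

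Among the 9 genes, those of retinol and retinal oxidation differed most between the arrays, and they went in opposite directions. Adh7 and Aldh1a1 were over 100-fold higher in the DMA-tumor array, Aldh1a3 and Rdh10 were higher by smaller ratios, and Aldh1a2 was lower. The methods of the study removed values under 100, whereas here a gene was dropped if it was under 100 on both arrays. Of the 9 genes, 8 reached 100 on 1 or both arrays, and genes that did so are called kept here. Of the 8, 4 were higher by a ratio of at least 2, which 8.87% of all 12074 kept genes were, and 1 was lower by a ratio of at most 0.5, which 10.5% were. The methods of the study add a Z-score of 2 without a formula. With it taken here as the distance of a difference from the mean of all kept genes, in standard deviations, 3 were still higher (Adh7, Aldh1a1 and Aldh1a3) and 1 lower (Aldh1a2), and over all kept genes 2.53% were higher and 2.37% lower. Since this contrast chose the genes, nothing is read from these counts.

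**Figure D1:**
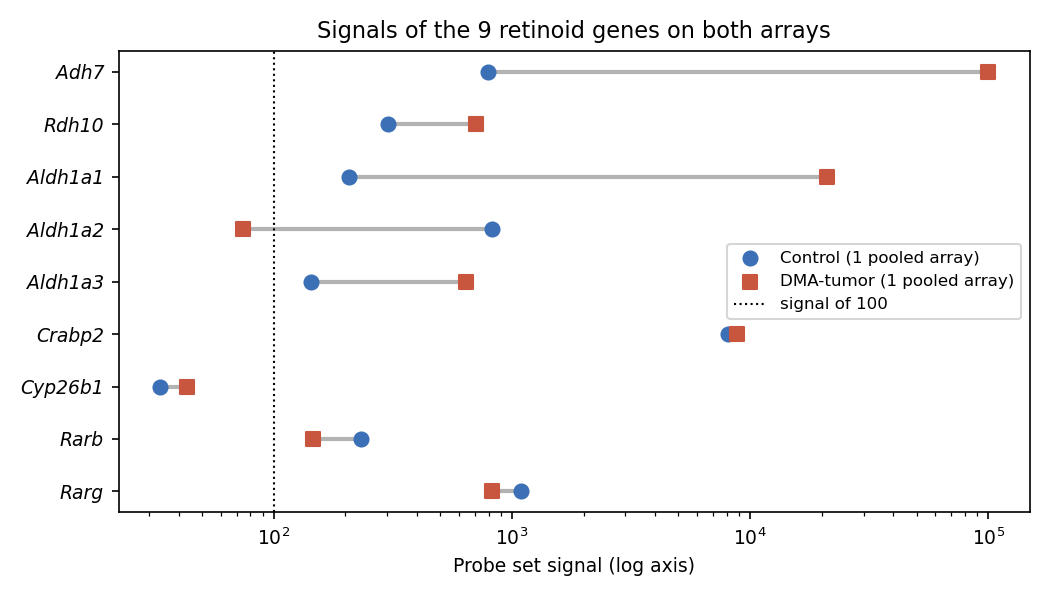
Probe set signal (log axis) of each of the 9 retinoid genes on the Control array (circles) and the DMA-tumor array (squares), 1 pooled array per group and so without error bars. Adh7 spans 796 to 100036 and Aldh1a1 207 to 21103, Aldh1a2 runs the other way from 826 to 74.2, and both signals of Cyp26b1 lie left of the dotted line at 100.

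Adh7, the class IV alcohol dehydrogenase of epithelia and an efficient retinol oxidase, gave 796 on the Control array, and on the DMA-tumor array it gave 100036. The ratio was 126-fold, a log2 difference (DMA-tumor minus Control) of 6.97, and it ranked 7 from the top among 12074 kept genes. Rdh10, the membrane-bound retinol dehydrogenase that is essential for retinoic acid synthesis in the mouse embryo, had signals of 303 and 708 and was 2.34-fold higher. Ratios of 2 were more frequent among brighter genes. Where the brighter signal lay from 100 to 1000, as for Rdh10, Aldh1a2, Aldh1a3 and Rarb, 7.73% of 7209 genes were higher and 8.96% lower. Where it lay from 1000 to 10000, as for Crabp2 and Rarg, the shares were 9.53% and 12.2% of 4020 genes, and where it was higher still, as for Adh7 and Aldh1a1, they were 15.5% and 16.1% of 845. After quantile normalization Rdh10 had a log2 difference of 1.0 and fell just short of a ratio of 2.

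The 3 retinal dehydrogenases, close relatives that carry out the same reaction, did not move together. Aldh1a1, the widely expressed cytosolic enzyme, had signals of 207 and 21103, a ratio of 102-fold (log2 difference 6.67) that ranked 8 from the top, directly after Adh7. Aldh1a3, the retinal dehydrogenase of several embryonic epithelia, had signals of 144 and 640 and was 4.45-fold higher. Aldh1a2, the main source of retinoic acid in the mouse embryo, had signals of 826 and 74.2. Because the latter is under 100, it was set to 100 for the fold, which is then a bound, and Aldh1a2 was at least 8.26-fold lower. By its measured log2 difference of -3.48 it ranked 90 from the bottom. Where 100 was required on both arrays, Aldh1a2 dropped out and 0 of the 9 genes were lower.

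Aldh1a2 was lower on the same array as the fibroblast and smooth muscle markers. The 7 fibroblast markers, all lower by a ratio of at most 0.5, had log2 differences from -8.84 to -5.05, and their signals summed to 150525 on the Control array against 1320 on the other. The 6 smooth muscle markers, all lower, had log2 differences from -5.35 to -3.47, and their signals summed to 55666 and 4184. Of 4 mesothelial markers, 2 were lower, 1 was higher and 1 was under 100 on both arrays. Of 5 macrophage markers 3 were lower and 0 higher, and of 5 endothelial markers 2 were higher (Kdr and Vwf) and 0 lower. Over all kept genes 10.5% were lower and 8.87% higher. The bounds of the mesothelial marker Lrrn4 (1.46-fold) and the macrophage marker Cd163 (1.63-fold), both counted as lower, do not reach a ratio of 2. The part of all these markers in the result for Aldh1a2 was not tested. Adh7, Aldh1a1 and Aldh1a3 were higher on the array where the 6 urothelial markers were lower (log2 differences from -6.21 to -1.55). Among 11 listed markers of basal and squamous epithelium 4 were kept, 2 of them higher and 0 lower. The higher ones were Krt14, a keratin of basal cells, at 2865 and 133451 (46.6-fold), and Ivl, which encodes the cornified envelope protein involucrin, at 449 and 2152 (4.80-fold). Sprr1a, a further envelope protein, had signals of 324208 and 191505, and the 9 markers measured, most of whose signal was that of Sprr1a and Krt14, summed to 340082 and 340948. Tp63 had signals of 12277 and 13519. The other 5 measured, Krt1, Krt10, Krt13, Loricrin and Tgm1, were under 100 on both arrays. Single markers were named after their values had been seen. The part of these markers was likewise not tested.

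The DNA just upstream of the annotated start of Adh7 and of the 3 retinal dehydrogenases is shown because these 4 genes differed in direction as well as in size. Each line gives the 120 bases before the start, from the RefSeq promoter table of build GRCr8, read on the strand of the gene. Capitals mark the CCAAT box and the A-rich TATA-type motif ATAAAA, both searched on both strands. The motif TATAAA was searched too and occurs in none of the lines. Variants of these motifs are not marked. The windows lie at chr2:229422005-229422124 for Adh7, chr1:227537500-227537619 for Aldh1a1, chr8:80758521-80758640 for Aldh1a2 (all on the plus strand) and chr1:129427644-129427763 for Aldh1a3 (minus strand).
Adh7: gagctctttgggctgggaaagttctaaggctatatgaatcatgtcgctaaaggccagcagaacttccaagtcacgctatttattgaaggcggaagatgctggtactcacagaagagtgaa
Aldh1a1: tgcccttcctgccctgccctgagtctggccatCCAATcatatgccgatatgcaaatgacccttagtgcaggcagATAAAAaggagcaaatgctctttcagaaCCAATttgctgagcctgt
Aldh1a2: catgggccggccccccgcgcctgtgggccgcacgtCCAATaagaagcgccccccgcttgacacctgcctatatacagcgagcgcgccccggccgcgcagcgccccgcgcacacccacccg
Aldh1a3: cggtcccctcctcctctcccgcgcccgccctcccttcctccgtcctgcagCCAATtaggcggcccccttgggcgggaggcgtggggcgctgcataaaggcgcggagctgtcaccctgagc

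Adh7 and Aldh1a1 had AT-richer starts than Aldh1a2 and Aldh1a3. G and C made up 45.8% of the 120 bases of Adh7 and 49.2% of those of Aldh1a1, against 75% in Aldh1a2 and 72.5% in Aldh1a3. Over the whole table window, from 250 bases before to 50 after the start, CpG dinucleotides numbered 7 in Adh7, 1 in Aldh1a1, 47 in Aldh1a2 and 31 in Aldh1a3, and the median over 33469 windows was 7 (quartiles 3 and 19). The high counts occurred both in a gene that was lower, Aldh1a2, and in one that was higher, Aldh1a3. Over the same windows G and C made up 43% in Adh7, 48.3% in Aldh1a1, 76% in Aldh1a2 and 74.3% in Aldh1a3. The median over all windows was 51.7% (quartiles 44.7% and 60.3%). A CCAAT box was found in the windows of all 3 retinal dehydrogenase genes and in 37.5% of all windows. Among the retinoid genes ATAAAA was found in the windows of Aldh1a1 and Crabp2, and in 20.5% of all windows. TATAAA was found among them in that of Crabp2 alone, and in 14.2% of all windows. The motif TGACNNNGC, a core shared by many antioxidant response elements, was in 12.1% of all windows. Among the 9 windows of the retinoid genes it was in those of Aldh1a2 and Cyp26b1 alone. These are descriptions of letters in short windows and say nothing of the binding of any factor.

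Neighbouring protein-coding genes on the chromosome, 5 on each side of each of the 9 genes in RefSeq order, were looked up next. Of the 90 neighbours 64 were kept, 2 of them higher and 7 lower, and the shares over all kept genes were 8.87% and 10.5%. Adh7 stands at the end of a row of alcohol dehydrogenase genes that went in different directions. The gene beside it is Adh1c, the class I alcohol dehydrogenase that also oxidises retinol and is listed under the older name Adh1. It had signals of 1888 and 93.9 and was at least 18.9-fold lower, which by its measured log2 difference of -4.33 ranked 41 from the bottom. The following genes Adh6a, Adh6 and Adh4 were under 100 on both arrays, and Adh5, the class III enzyme that acts chiefly on glutathione-bound formaldehyde, had signals of 1884 and 1556. On the other side, Mttp, which loads lipid onto lipoproteins, had a log2 difference of -2.86.

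Aldh1a1 was next to Anxa1, an annexin with anti-inflammatory action, whose signals were 1292 and 16079 (log2 difference 3.64). Anxa1 was the only neighbour of Aldh1a1 past a ratio of 2 among 3 kept. No kept neighbour of Aldh1a3 was past a ratio of 2, among 10, and among the 8 kept neighbours of Aldh1a2 the single one past it was Mindy2, a deubiquitinase, at -1.13. Adh5, Adh6a, Mttp, Anxa1 and Mindy2 were named after their values had been seen.

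**Figure D2:**
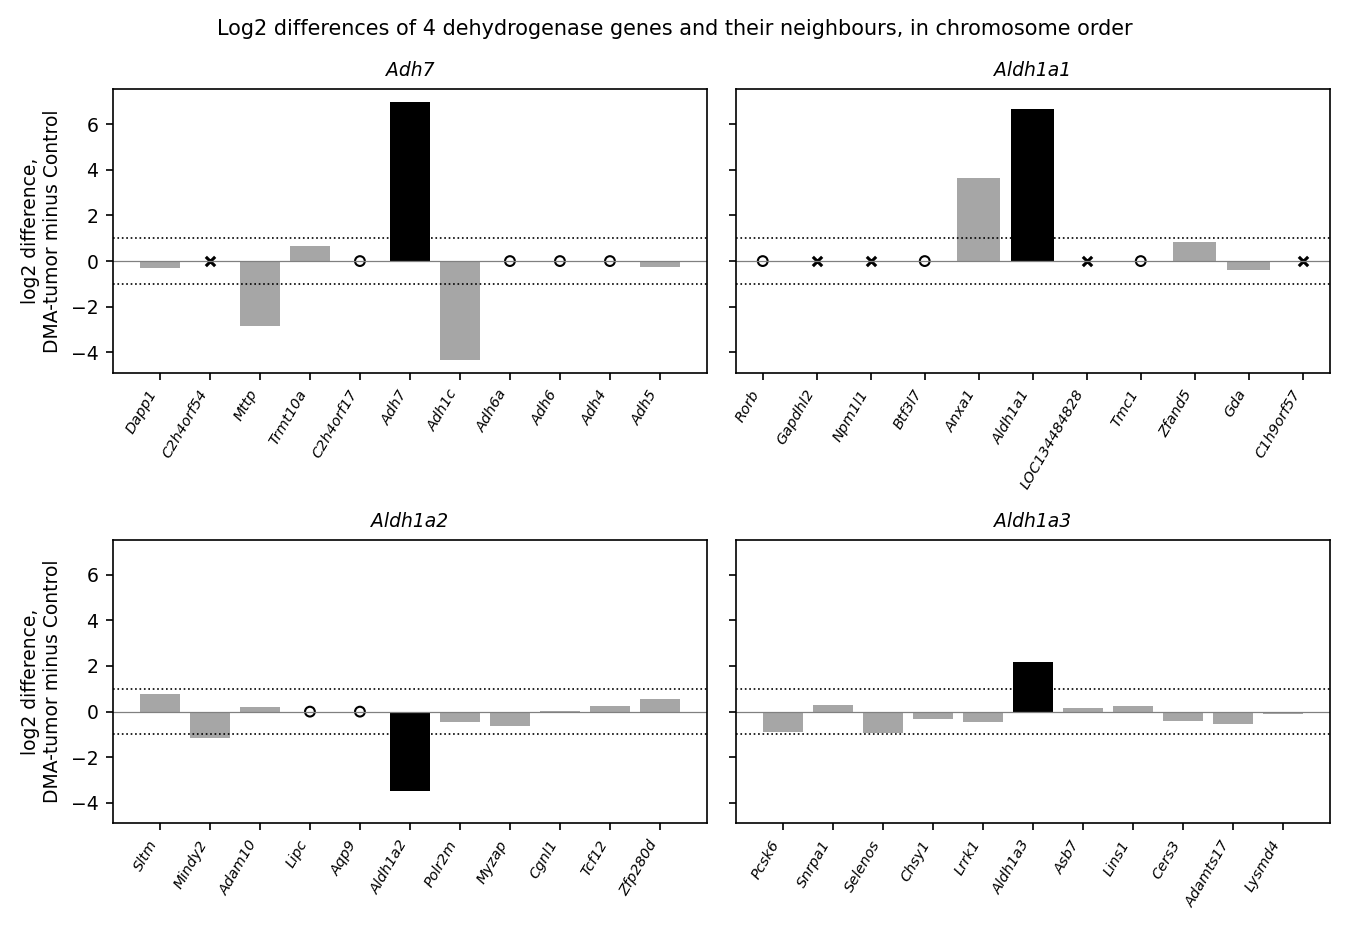
Log2 difference (DMA-tumor minus Control, y axis) of Adh7, Aldh1a1, Aldh1a2 and Aldh1a3 (black bars) and of the 5 genes on each side in chromosome order (grey bars, x axis). Open circles are genes under 100 on both arrays, crosses are genes with no probe set of a single symbol, and dotted lines mark a ratio of 2. Adh7 at 6.97 stands beside Adh1c at -4.33, while the neighbours of Aldh1a3 stay within the lines.

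In the deposited values the binding protein and the receptors Rarb and Rarg were within a ratio of 2, and the breakdown enzyme was too low to compare. Crabp2, which moves retinoic acid into the nucleus, had signals of 8101 and 8789, a ratio of 1.08. Its other probe set gave 559 and 679, a log2 difference of 0.28 beside 0.12 for the one used. The sign of the small difference of Crabp2 turned under loess correction (-0.23) and quantile normalization (-0.10), so no direction is given for it. Cyp26b1, the CYP26 enzyme that clears retinoic acid in many developing tissues, had signals of 33.4 and 43.1 and was under 100 on both arrays. Genes that were low on both arrays, 10019 in number, had log2 differences between -0.71 and 0.62 over their central 95% (1.15% of them past a ratio of 2), and that of Cyp26b1, at 0.37, lay within this range.

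Rarb, the receptor that retinoic acid itself induces in many tissues, had signals of 233 and 146, 1.59-fold lower in the DMA-tumor array. Rarg, the RAR receptor prominent in squamous epithelia such as skin, had signals of 1096 and 823, 1.33-fold lower. Neither reached a ratio of 2 in the deposited values, though Rarb just did so after quantile normalization (log2 difference -1.0). The log2 differences of Rarb and Rarg were negative under each scaling tried. So was the median of all kept genes, from -0.082 as deposited to -0.35 after quantile normalization. The remaining kept receptors of the 2 families also had negative log2 differences. Rara had signals of 700 and 447 (log2 difference -0.65), Rxra 12125 and 5350 (-1.18, a ratio of 2.27) and Rxrb 213 and 189 (-0.17), while Rxrg was under 100 on both arrays. Of these 3 kept receptors Rxra alone was past a ratio of 2, and Rxrb lay close to the median of all kept genes, -0.082.

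The RefSeq window of Rarb holds the direct repeat through which retinoic acid receptors are known to act on this gene. It is shown, with its repeat units in capitals, because Rarb is both a receptor and a target of the pathway. The line covers bases 19 to 47 after the annotated start, at chr15:11336410-11336438 of build GRCr8 on the plus strand.
Rarb: gggaagGGTTCAccgaaAGTTCActcgca
The search took any pair of repeat units, each being AGGTCA or its variant AGTTCA or the unit GGGTCA or its variant GGTTCA, in the same direction with a spacer of 1, 2 or 5 bases, on both strands. A repeat with a spacer of 5 was found in 0.382% of the 33469 windows (128), and among the 9 windows of 8 of the retinoid genes it was found in Rarb alone. Spacers of 1 and 2 were found in 0.233% and 0.170% of all windows and in none of these 9. Sites outside the windows were not searched.

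**Figure D3:**
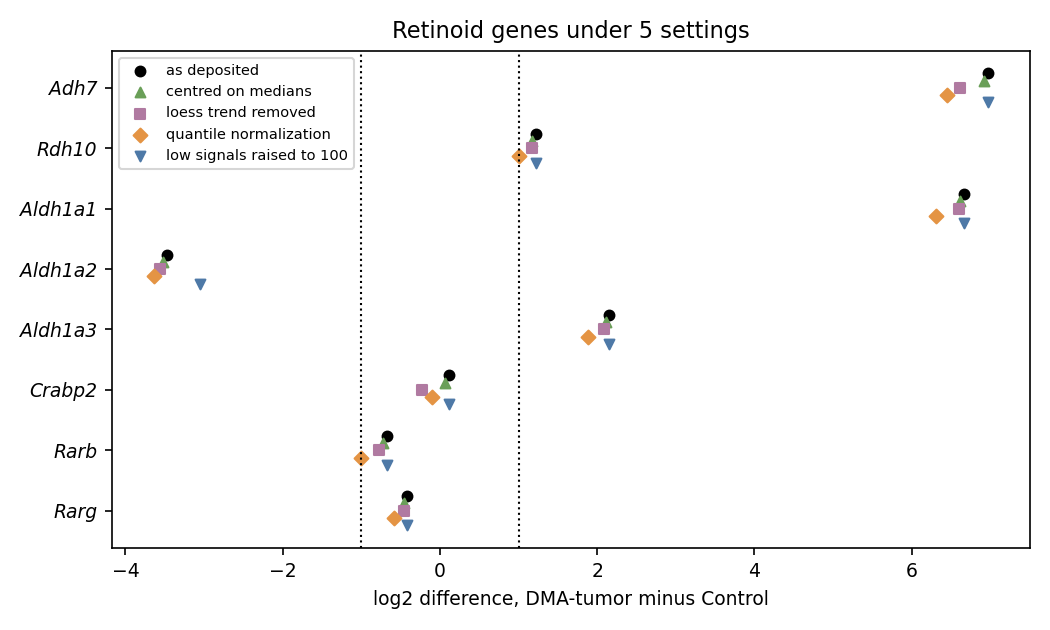
Log2 difference (DMA-tumor minus Control, x axis) of the 8 kept retinoid genes as deposited, centred on array medians, with a loess trend removed, after quantile normalization and with signals under 100 raised to 100. Dotted lines mark a ratio of 2, and Rdh10 and Rarb are the genes that quantile normalization moves onto a line, at 1.0 and -1.0.

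The other genes of the pathway formed a list of 57 that leaves out the 9, and those that differed by a ratio of 2 went both ways. Of these, 6 had no probe set of a single symbol, 20 were under 100 on both arrays and 31 were kept, of which 5 (16.1%) were higher and 10 (32.3%) lower by a ratio of 2. Over all kept genes the shares were 8.87% and 10.5%. The list was chosen with earlier results of these data known, so nothing is read from these counts. With signals under 100 raised to 100, 4 were higher and 9 lower. With the Z-score added, 3 were higher and 3 lower. The median log2 difference of the 31 genes was -0.29, and 21 of them were negative. This median was -0.073 with no filter on signal and -0.58 after quantile normalization.

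Of 8 kept genes of uptake and storage, 2 were higher and 2 lower, against 8.87% and 10.5% of all kept genes. Rbp2, the cellular retinol-binding protein of the intestine, gave 44.2 and 354 and was at least 3.54-fold higher. Stra6, the receptor through which cells take up retinol from its plasma carrier, had signals of 41.6 and 175, and its bound of 1.75-fold does not reach a ratio of 2. Rbp7, a retinol-binding protein of fat and endothelium, had signals of 1475 and 409 and was 3.60-fold lower. Lrat, which makes the retinyl esters that store vitamin A, had signals of 387 and 149 and was 2.60-fold lower. Genes that bind retinol were thus on both sides, and the esterifying enzyme was on the lower one.

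Among 16 genes of retinol and retinal conversion other than Adh7 and Rdh10, 10 were under 100 on both arrays. Of the 6 kept, Adh1c (above) and Dhrs3 were lower and Rdh16 was higher. Dhrs3, which returns retinal to retinol and is itself induced by retinoic acid, had signals of 4586 and 2292, a ratio of 2.00 that only just met the criterion. Rdh16, a microsomal retinol dehydrogenase, had signals of 212 and 433 (2.04-fold higher), but its other probe set gave 120 and 127, and the mean of both had a log2 difference of 0.55. Under the other scalings its log2 difference was 0.74 to 0.98, short of a ratio of 2. Rdh13 was within a ratio of 2, at -0.38. Fabp5, which can carry retinoic acid to the receptor PPARD, had signals of 12679 and 29286 and was 2.31-fold higher, a log2 difference of 1.21 that was 0.68 under loess correction and 0.79 after quantile normalization. Crabp1, Aldh8a1 and Aox1 were under 100 on both arrays, as were Cyp26a1 and Cyp26c1, whose signals lay between 31.3 and 46.1. No CYP26 gene was therefore measured above 100.

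Of 9 kept receptors and coregulators in the list, 0 were higher and 2 lower, against 8.87% and 10.5% of all kept genes. Their median was -0.17, beside -0.082 for all kept genes. Those lower were Rxra and Ncoa1, a coactivator of nuclear receptors, whose signals were 3908 and 1637 (2.39-fold lower). The coactivator Ncoa2 had a log2 difference of -0.60.

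Among 7 kept genes known as retinoic acid targets in various cells, 4 were lower and 1 higher (10.5% and 8.87% of all kept genes), and the median log2 difference was -1.29. Tgm2, the tissue transglutaminase that cross-links proteins, had signals of 3972 and 257 and was 15.5-fold lower, which ranked 61 from the bottom. Rarres1, a membrane protein named for its response to a retinoid, had signals of 1110 and 242 and was 4.58-fold lower. Rarres2, which encodes the chemoattractant chemerin, had signals of 196 and 68.3, and its bound of 1.96-fold does not reach a ratio of 2. Meis2, a homeobox factor named, like Meis1 and Nrip1, after its value was seen, had signals of 333 and 136. The gene higher was Gprc5a, an orphan receptor of epithelia first found as a retinoic acid-induced gene, which gave 30.2 and 307 and was at least 3.07-fold higher. The other kept targets were within a ratio of 2, with log2 differences of 0.91 for Meis1, a homeobox factor related to Meis2, and 0.04 for Nrip1, a corepressor of nuclear receptors, whose sign turned under the other scalings (-0.01 to -0.19). The median of the targets depended on the filter. It was -0.97 with signals under 100 raised to 100 and -0.039 when the genes under 100 on both arrays were counted too. The fibroblast and smooth muscle markers were lower on the same array as the 4 lower targets, as given above, and their part was not tested.

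**Figure D4:**
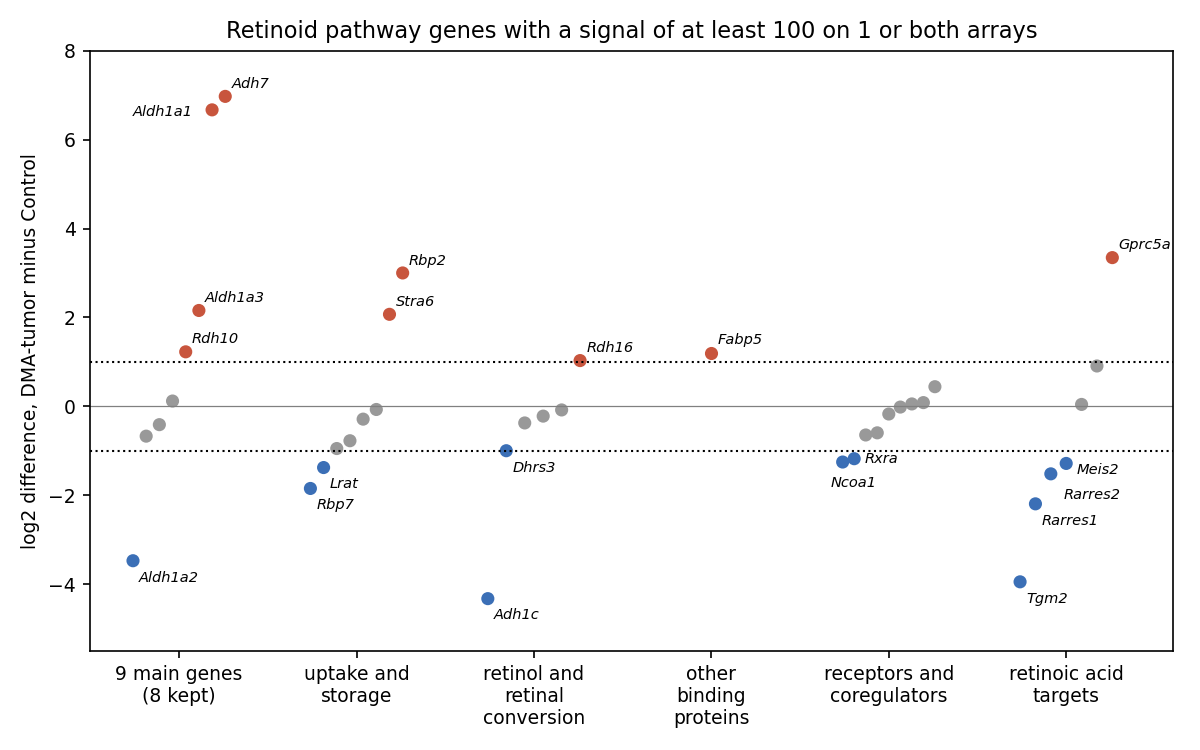
Log2 difference (DMA-tumor minus Control, y axis) of the 8 kept retinoid genes and of 31 further kept pathway genes by role (x axis), 1 point a gene, coloured where the ratio is at least 2 (red) or at most 0.5 (blue), with dotted lines at these ratios. Points run from Adh1c at -4.33 to Adh7 at 6.97, and the receptors and coregulators lie between -1.26 and 0.44.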

How the data were processed

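Biotin-labelled targets were made from TRIzol-extracted total RNA with a whole-transcript kit, per the labels. The submitters' processing notes list RMA and, for software, Expression Console 1.4.1 (Affymetrix), whereas the methods of the study describe global median normalization on a 3'-based array. Which of these the authors applied could not be settled. Values were deposited as probe set intensity on a linear scale, with medians of 50.6 (Control) and 52.3 (DMA-tumor) over 68842 probe sets, and the 99th percentiles were 83299 and 171248. The precision is limited by the number of arrays. Log2 was taken of each value, with no further normalization.

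Probe sets with 1 symbol in the platform annotation (23446; 505 had several and 44891 none listed) gave 22093 genes. Kept genes reached 100 on 1 or both arrays. A call was a ratio of at least 2 or at most 0.5. The members and lists were chosen with earlier results of these data known. All 9 members were described, and, of each list, up to 4 kept genes with the largest differences. List symbols carried by no probe set were looked up among RefSeq synonyms. The calling code was checked on simulated data, which says nothing of the error of these arrays. No column was left unmapped. Alternatives were other filters, scalings (loess span 0.3), probe set means, raised low signals, a ratio of 1.5, and an added Z-score of 2, for which the study gives no formula. Scripts ran in Python 3.11.15 with pandas 2.3.3 and numpy 2.4.6, loess came from statsmodels 0.14.6, and plots from matplotlib 3.10.9.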

Additional observations from a re-analysis of the deposited data

How the results depend on the processing

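The log2 differences of Adh7, Aldh1a1, Aldh1a2 and Aldh1a3 kept their sign and stayed past a ratio of 2 under each scaling. Filters and probe set means could not alter them, as a filter only drops genes and each had 1 probe set. Raising low signals to 100 altered Aldh1a2 alone of these genes. Over all settings the differences ranged from 6.45 to 6.97, 6.31 to 6.67, -3.64 to -3.05 and 1.89 to 2.16, in the order named. Aldh1a2 dropped out where a signal of at least 100 was required on both arrays, which left 0 of the 9 retinoid genes lower and 2 of the wider list higher. Quantile normalization took Rdh10 to 1.0, just under a ratio of 2, and Rarb to -1.0, just past it, so that 2 of the 9 were lower, as also by a ratio of 1.5. The number of wider pathway genes higher was 3, not 5, with the loess trend removed and after quantile normalization. With the added Z-score it was 3, and 3, not 10, were lower.

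The median of the wider list (-0.29) was -0.42 with the loess trend removed and -0.58 after quantile normalization, and -0.073 with no filter or a filter at 32. That of the receptors and coregulators (-0.17) was -0.52 after quantile normalization and -0.28 with no filter or a filter at 32. That of the targets (-1.29) was -1.58 after quantile normalization, -0.97 with low signals raised to 100, and -0.039 with no filter or a filter at 32. These scalings also moved the median of all kept genes, from -0.082 to -0.13 (centred), -0.20 (loess) and -0.35 (quantile). Higher genes made up 45.7% of all calls as deposited (1071 higher, 1271 lower) and 27.8% after quantile normalization (766 and 1993). Which scaling fits these arrays was not tested. No paired analysis was possible because each group had 1 array.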
